A study of Mus musculus with 12 samples.

Results

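The 10 genes described here encode inducible brakes and modulators of kinase and G-protein signalling: the MAP kinase phosphatases Dusp1, Dusp4, Dusp5 and Dusp6, the regulators of G-protein signalling Rgs2 and Rgs4, the Sprouty genes Spry2 and Spry4, the Tribbles pseudokinase gene Trib1 and the kinase gene Pim1. They were taken by symbol from a mouse RefSeq gene table, in which all 10 were found among 21523 protein-coding genes, and a c-Fos peak was counted for a gene when its midpoint lay inside the gene or within 100 kb of it. c-Fos binding was profiled by CUT&RUN, an assay that releases antibody-bound DNA fragments from intact nuclei with a tethered nuclease, in nuclei from hippocampal CA1, a field of pyramidal neurons. The 12 samples formed 4 groups of 3 replicates: c-Fos after kainic acid, IgG after kainic acid, c-Fos after phosphate buffered saline (PBS) and IgG after PBS. All groups shared the strain (C57BL/6), the age (3 to 4 weeks) and the genotype CaMK2a-Cre/+; LSL-Sun1-GFP/+, in which a Cre driven by CaMK2a, active in excitatory forebrain neurons, removes a stop cassette and so switches on a green fluorescent nuclear envelope tag. The labels give the interval after injection as 2 to 3 h, and 50000 sorted nuclei went into each reaction.

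Kainic acid activates kainate-type glutamate receptors and brings on intense, seizure-like activity. The c-Fos antibody was an in-house polyclonal, and how many mice each replicate held is not stated in the labels. The values came from a single list of 3295 peaks, named as replicated peaks of c-Fos against IgG after kainic acid, of which the 3294 on assembled chromosomes were used. The list gives a start and an end per peak and no signal, score or value per library. Depth is therefore unknown, no spread between replicates can be given, and binding after kainic acid could not be set against binding after PBS. The intervals below are exact binomial (Clopper-Pearson) 95% intervals and cover counting error over genes only. The list holds no expression, so neither the induction of the 10 genes nor the identity of the sorted nuclei could be checked.

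Neuronal firing lets in calcium, which activates the Ras and MAP kinase cascade as well as G-protein coupled pathways. Many genes that these pathways switch on encode proteins that then restrain them: dual-specificity phosphatases strip phosphate from MAP kinases, Sprouty proteins block signalling from receptor tyrosine kinases to Ras, and RGS proteins speed up the shut-off of G-protein alpha subunits. c-Fos, itself a product of an immediate early gene, pairs with Jun proteins to form AP-1, which binds the motif TGANTCA. Pairs of AP-1 and ATF proteins can also bind the cAMP response element (CRE, TGACGTCA), the site of CREB.

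Of the 10 genes, 6 (60%, interval 26.2 to 87.8) had at least 1 peak: Dusp1, Rgs2, Rgs4, Spry2, Trib1 and Pim1. Over all protein-coding genes the share was 21.8%. Together they had 12 peaks, none with its midpoint inside the gene. Over all protein-coding genes 5.52% had a peak inside, so finding none among 10 genes is near the background. The 10 genes are also short, with a median length of 5746.5 bp against 17374 bp over all protein-coding genes. At 4 of the genes, Trib1, Dusp1, Pim1 and Rgs2, a peak was centred within 1 kb of a gene end, which was the case for 1.21% of all protein-coding genes (261 of 21523). Spry2 followed at 1.14 kb, so that 5 of the 10 genes had a peak within 2 kb of an end, against 1.67% of all protein-coding genes, and Rgs4 had its 5 peaks farther out. Rgs4, Rgs2 and Trib1 had more than 1 peak (5, 2 and 2), as did 5.59% of all protein-coding genes. The other 4 genes, Dusp4, Dusp5, Dusp6 and Spry4, had no peak within 100 kb. Since the genes were grouped with earlier results of these peaks known, these counts are a description and were not tested.

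**Figure D1:**
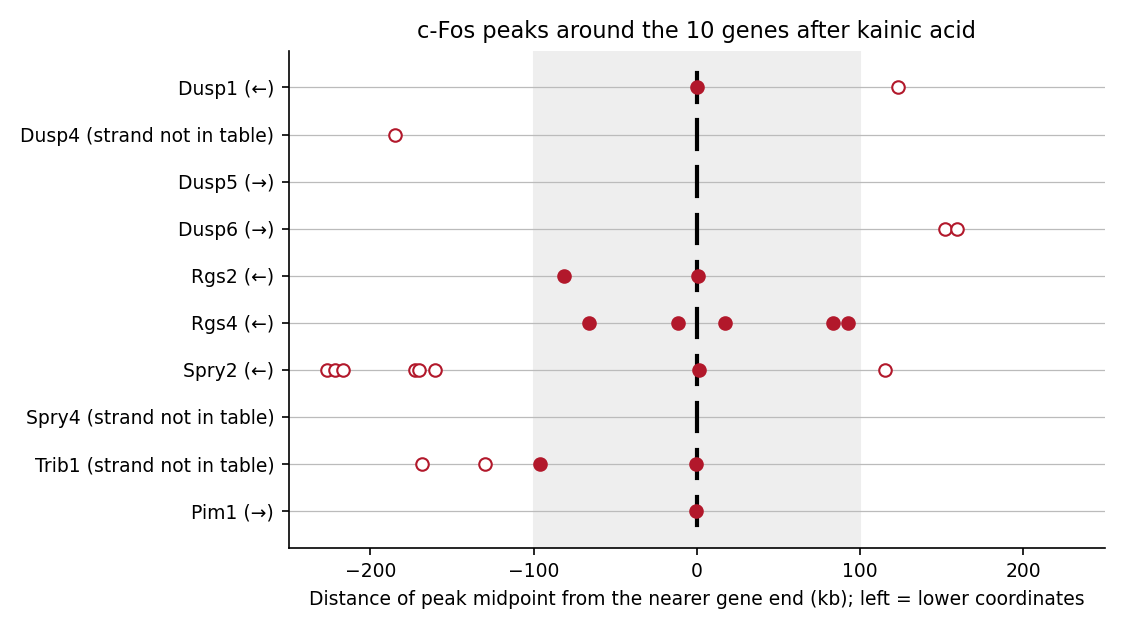
Peaks around each gene, with the distance of the peak midpoint from the nearer gene end in kb on the horizontal axis and lower coordinates to the left. Filled circles are the 12 peaks within 100 kb (grey band), open circles the 13 peaks at 100 to 250 kb, black bars the genes, and arrows the direction of transcription. Peaks sit at the gene edge in Dusp1, Rgs2, Spry2, Trib1 and Pim1, on both sides in Rgs4, and 6 lie together beyond the band at Spry2.

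Promoter sequences are given for the 3 genes whose RefSeq promoter window lay under a peak, and, for contrast, for Rgs4, which had the most peaks but none at its start, and Dusp5, which had none nearby. Each window runs from 250 bases before the annotated transcript start to 50 bases after it (RefSeq, GRCm38.p6, the assembly that mm10 represents), written 5′ to 3′ along the gene. Capitals mark matches on either strand to 6 motifs: AP-1 (TGANTCA), CRE (TGACGTCA), the core TGACG, which is contained in the full CRE, EGR (GCGTGGGCG), the CArG box bound by serum response factor, and the MEF2 box.
Dusp1 (chr17:26508423-26508722, minus strand): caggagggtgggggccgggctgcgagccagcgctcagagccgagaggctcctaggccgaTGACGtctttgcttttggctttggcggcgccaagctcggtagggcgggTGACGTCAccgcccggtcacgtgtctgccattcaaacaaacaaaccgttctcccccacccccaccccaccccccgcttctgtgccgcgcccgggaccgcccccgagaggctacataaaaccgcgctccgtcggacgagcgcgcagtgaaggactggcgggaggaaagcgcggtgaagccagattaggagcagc
Rgs2 (chr1:144004100-144004399, minus strand): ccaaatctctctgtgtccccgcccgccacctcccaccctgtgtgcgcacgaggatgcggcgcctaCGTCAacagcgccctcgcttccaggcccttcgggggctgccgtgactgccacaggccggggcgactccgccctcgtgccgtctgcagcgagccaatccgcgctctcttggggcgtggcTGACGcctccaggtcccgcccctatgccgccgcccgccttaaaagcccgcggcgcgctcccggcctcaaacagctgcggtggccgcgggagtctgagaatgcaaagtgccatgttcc
Pim1 (chr17:29490535-29490834, plus strand): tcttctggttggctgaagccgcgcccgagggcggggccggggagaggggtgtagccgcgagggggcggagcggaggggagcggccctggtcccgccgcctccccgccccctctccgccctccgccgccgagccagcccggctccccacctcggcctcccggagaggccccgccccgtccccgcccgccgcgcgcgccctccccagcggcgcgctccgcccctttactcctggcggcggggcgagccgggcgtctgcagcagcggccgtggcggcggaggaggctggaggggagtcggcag
Rgs4 (chr1:169747593-169747892, minus strand): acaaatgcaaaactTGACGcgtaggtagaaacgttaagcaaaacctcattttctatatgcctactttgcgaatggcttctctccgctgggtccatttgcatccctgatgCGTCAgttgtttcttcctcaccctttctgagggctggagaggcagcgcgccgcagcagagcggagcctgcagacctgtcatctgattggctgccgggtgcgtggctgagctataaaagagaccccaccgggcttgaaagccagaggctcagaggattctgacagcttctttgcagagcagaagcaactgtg
Dusp5 (chr19:53528895-53529194, plus strand): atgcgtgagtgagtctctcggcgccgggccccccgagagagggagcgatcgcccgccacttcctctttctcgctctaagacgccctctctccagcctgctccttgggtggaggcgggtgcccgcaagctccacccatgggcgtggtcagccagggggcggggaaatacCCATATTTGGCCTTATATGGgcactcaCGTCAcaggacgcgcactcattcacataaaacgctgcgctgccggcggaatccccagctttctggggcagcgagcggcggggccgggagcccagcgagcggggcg

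Windows were found for 7 of the 10 genes (8 windows, since Pim1 has a pair). Those of Dusp4, Spry4 and Trib1 were not in the table. Dusp1 held the one full CRE among the 8 windows, TGACGTCA at 143 to 136 bases before the start, and a further TGACG 191 to 187 bases before it. Rgs2 had the core TGACG once on each strand, beginning 185 and 67 bases before the start, and no full CRE. The Pim1 window under the peak held none of the 6 motifs and was 81.3% G and C. AP-1 motifs were found in 0 of the 8 windows, which says only that these letters are not in these 300 bases.

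Across the promoter windows of all protein-coding genes, a full CRE was present in 9.75% of the 236 windows that a peak overlapped and in 2.26% of all 21045 windows. The core TGACG was present in 49.6% and 23.8%, and the AP-1 motif in 16.9% and 7.04%. Windows of the same gene overlap in part, and no test was made. Of the 5 windows without a peak, those of Dusp6 and Spry2 and the second of Pim1 held none of the 6 motifs, and 2 held some. Rgs4 carried the core TGACG once on each strand, beginning 236 and 141 bases before its start, and Dusp5 carried 1 core and a pair of adjacent CArG boxes, CCATATTTGG and CCTTATATGG, at 82 to 63 bases before its start. A CArG box was present in 1.69% of the windows under a peak and in 1.54% of all windows.

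Dusp1 encodes MKP-1, a nuclear phosphatase that inactivates ERK, JNK and p38 kinases. Its gene is 2882 bp long and is the shortest of the 10 (chr17:26505591-26508472, minus strand). The peak at chr17:26508133-26509483 was 1351 bp wide and was centred 336 bp upstream of the transcript start. It covered all 300 bases of the promoter window printed above and the first 340 bases of the gene. No other protein-coding gene lay near: the next, Ergic1, was 51.9 kb from the midpoint. A second peak at 123 kb lay inside Ergic1 and outside the counting distance.

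Rgs2, which encodes a GTPase-activating protein for Gq alpha subunits, is transcribed from the minus strand of chromosome 1 (chr1:143999338-144004149). Its nearer peak, chr1:144004114-144005413, was 1300 bp wide and was centred 614.5 bp upstream of the start. It covered 286 of the 300 promoter bases, including both TGACG cores, and 36 bases of the gene. The other peak (chr1:143917615-143918527) was 913 bp wide, the narrowest of the 12, and lay 81.3 kb beyond the opposite end of the gene. Rgs2 was the nearest protein-coding gene for both.

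Pim1 encodes a serine/threonine kinase that is active as soon as it is made, so that its level sets its activity. Its single peak, chr17:29489319-29491322, was the widest of the 12 at 2004 bp and the only one of 2 kb or more, a width reached by 14.4% of all peaks. The midpoint lay 464.5 bp upstream of the first transcript start, inside the annotated long non-coding RNA gene Gm26885, and the peak covered the first promoter window and 538 bases of Pim1. The second Pim1 window, from a downstream start, was not covered.

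Trib1 encodes a pseudokinase that brings target proteins to the COP1 ubiquitin ligase. Its nearer peak, chr15:59647431-59649337, was 1907 bp wide, covered 684 bases of the gene and was centred 270 bp outside its lower-coordinate end, the closest of the 12. The gene table gives no strand and no promoter window of Trib1 was in the table, so whether that end is the start is not stated here. The other peak, 95.9 kb away, lay inside the neighbouring gene Nsmce2. A pair of peaks farther out, at 130 and 168 kb, was also inside Nsmce2.

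Spry2, which encodes an inhibitor of signalling from receptor tyrosine kinases to Ras, had its peak at chr14:105897288-105898624, 1337 bp wide and centred 1137 bp upstream of the start on the minus strand. Unlike the peaks of Dusp1, Rgs2 and Pim1, it did not reach the promoter window, from which it was separated by 218 bp.

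All 4 genes with a known strand and a peak within 2 kb of an end (Dusp1, Rgs2, Spry2 and Pim1) had that peak on the side of the transcript start. Among protein-coding genes of at least 4 kb with a known strand and a peak within 2 kb of exactly 1 end, it was the start in 210 of 258 (81.4%, interval 76.1 to 86.0). Dusp1, at 2882 bp, is below this length limit and is not among the 258. The location at the start rather than at the far end was therefore shared with most genes that have a peak at an end. A promoter window overlapped by a peak was found for 3 of the 7 genes with a window, against 1.21% of all protein-coding genes with one (209 of 17274).

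**Figure D2:**
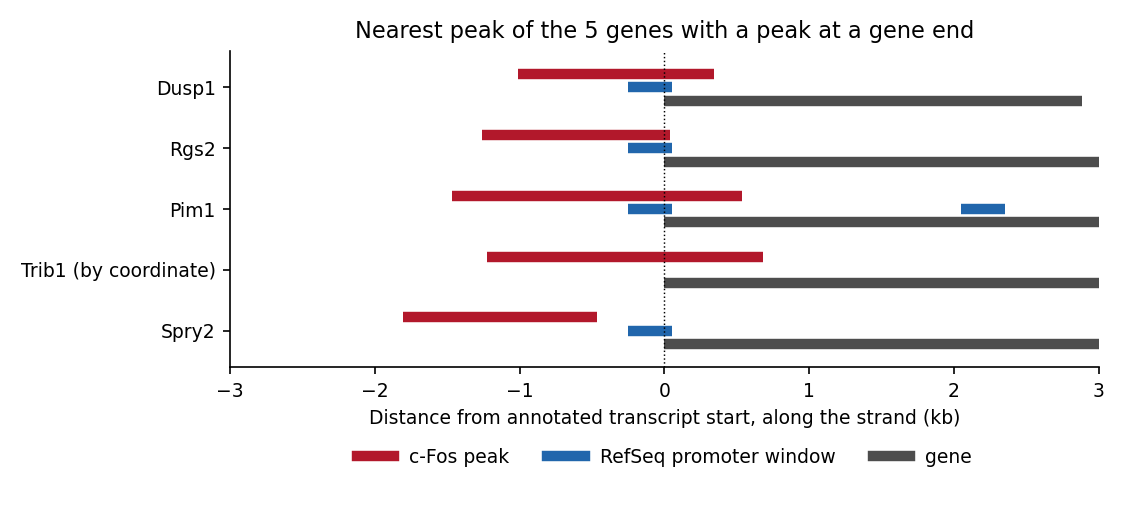
Extent of the nearest peak (red), the RefSeq promoter windows (blue) and the gene (grey, cut off at 3 kb) for the 5 genes with a peak at an end, along the strand and in kb from the annotated start. Trib1, without a strand in the table, is drawn by coordinate from its lower end. The peaks of Dusp1, Rgs2 and Pim1 cover the first promoter window whole or nearly so, and that of Spry2 ends 218 bp short of it.

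Rgs4 differed from the other 5 genes with a peak. It encodes a GTPase-activating protein for Gi and Gq alpha subunits that is abundant in forebrain neurons, and it lies on the minus strand of chromosome 1 (chr1:169741477-169747642). With 5 peaks it had the highest count of the 10 genes, and 5 or more were found for 55 protein-coding genes (0.256%). The nearest peaks flanked the gene, at 11.4 kb downstream (chr1:169729445-169730635, 1191 bp wide) and 17.1 kb upstream (chr1:169764167-169765285, 1119 bp). Another pair lay 83.6 and 92.9 kb upstream, 7380 bp apart, with widths of 1831 and 1982 bp.

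The fifth peak near Rgs4 (chr1:169674590-169676081), 66.1 kb downstream, lay inside Rgs5, a neighbouring gene of the same family that is known as a marker of pericytes. The outermost upstream peak was nearer to Ccdc190 (88.1 kb) than to Rgs4. If each peak was given only to the nearest protein-coding gene, Rgs4 kept 3 and Trib1 kept 1, while Dusp1, Rgs2, Spry2 and Pim1 kept all of theirs. Which gene any of these peaks acts on was not measured.

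Dusp4, Dusp5, Dusp6 and Spry4 had no peak within the counting distance. Dusp6 encodes a cytoplasmic phosphatase specific for ERK, and its nearest peaks were a pair 152 and 160 kb downstream (chr10:99419218-99420290 and chr10:99426409-99427591), for which it was nonetheless the nearest protein-coding gene. Dusp4, encoding a nuclear MAP kinase phosphatase related to Dusp1, had its nearest peak at 185 kb, inside the long non-coding RNA gene B930018H19Rik. The nearest peaks of Spry4 and of Dusp5, a nuclear phosphatase specific for ERK, were 482 and 2208 kb away. With the threshold of the list unknown, a gene without a peak is one at which no listed peak was found, not one shown to lack c-Fos.

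The limit of 100 kb fell between the Trib1 peak at 95.9 kb and a Spry2 peak at 115 kb. Extending it to 250 kb added 13 peaks, of which 7 were at Spry2, 2 each at Dusp6 and Trib1 and 1 each at Dusp1 and Dusp4. At that distance 8 of the 10 genes had a peak, against 39.6% of all protein-coding genes. At Spry2, 6 of the added peaks lay together 160 to 227 kb downstream, in 68.2 kb of chromosome 14 (chr14:105664188-105732442). They fell into 2 groups of 3, with the gaps inside the groups between 492 and 7701 bp and 41554 bp between the groups. Spry2 was the nearest protein-coding gene for all 6, and a pair of them lay inside the long non-coding RNA gene Gm35967. Each of the 6 had 5 other peaks within 100 kb, and 5 or more were found for 122 of all 3294 peaks (3.70%). That limit was taken from these 6 peaks after they had been seen, so the share is a description only.

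The 12 peaks within 100 kb had a median width of 1344 bp (range 913 to 2004 bp), beside 1341.5 bp over the list (quartiles 1097 and 1698.75 bp), and 6 of them were wider than the list's median. The 5 at gene edges had a median of 1351 bp (range 1300 to 2004 bp) and the 7 farther out a median of 1191 bp (range 913 to 1982 bp). These ranges overlap widely. The 6 grouped peaks downstream of Spry2 were all wider than the list's median, with a median of 2127.5 bp and a range of 1477 to 2776 bp. Width depends on the peak caller and its threshold and was not read as strength of binding.

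**Figure D3:**
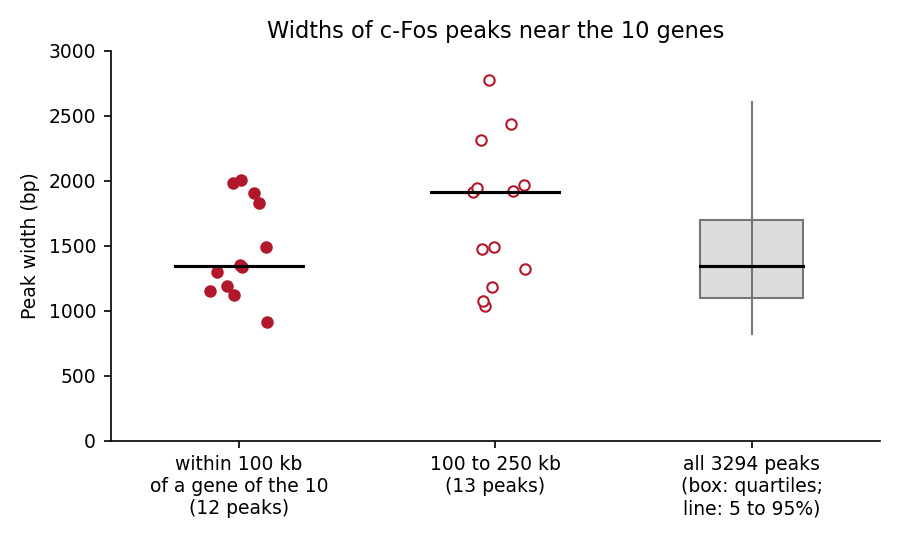
Width in bp of the 12 peaks within 100 kb of the 10 genes (filled), of the 13 peaks at 100 to 250 kb (open) and of all 3294 peaks (box, quartiles; thin line, 5th to 95th percentile). Black lines are medians: 1344, 1910 and 1341.5 bp. Of the 13 peaks, 6 are the group downstream of Spry2 (median 2127.5 bp). The others range from 1034 to 1969 bp.

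Genes of the same families and pathways were then counted, to place the 10 genes among their relatives. The 6 lists were drawn up from general knowledge and held 94 genes, of which 93 were counted, since the table position of Spry3 looked like that of an unplaced scaffold. Of these, 28 (30.1%, interval 21.0 to 40.5) had a peak inside or within 100 kb, beside 21.8% of all protein-coding genes. The listed genes are long, with a median of 61.2 kb against 17374 bp over all protein-coding genes, and the region counted grows with gene length. No share for genes of that length was computed. A peak within 1 kb of an end was found for 4 of the 10 genes and for 0 of the 93. At the background share of 1.21%, about 1 gene of 93 would have such a peak, so a count of 0 is near the background.

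Among the other MAP kinase phosphatase genes, 1 of 6 had a peak, Dusp16, at 94.4 kb. Of the other RGS genes, 6 of 18 had one. Rgs5, Rgs12, Rgs7 and Rgs20 each had 1 peak inside the gene, and the other 2 genes had none inside. Rgs5 and Rgs12 had 3 peaks each inside or within 100 kb. Those of Rgs5, 1 inside it and the others 34.2 and 68.9 kb away, were all counted for Rgs4 too. Spred2, an inhibitor of Ras signalling related to the Sprouty genes, was the only 1 of 4 in its list with a peak. Trib2 (15.9 kb) was the only 1 of 4 among the other Tribbles and Pim genes.

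In the Ras and MAP kinase cascade, 10 of 35 genes had a peak, and 6 had one inside the gene. These included Map2k4 and Map2k6, which encode kinases that activate JNK and p38, Rps6ka5, which encodes the chromatin kinase MSK1, and Rasa1, which encodes a Ras GTPase-activating protein. Of the G-protein subunits and effectors, 9 of 26 had a peak, and 6 had one inside the gene, among them Gnb5, Adcy8, Gnao1 and Gnaq. Gnb5 encodes the beta subunit that partners RGS proteins of the R7 group, Gnao1 and Gnaq encode alpha subunits, and Adcy8 encodes a calcium-stimulated adenylyl cyclase. A peak lay inside 0 of the 10 genes and 17 of the 93 listed genes, beside 5.52% of all protein-coding genes. For 10 genes a count of 0 is near that share. The genes also differ in length, with a median of 5746.5 bp over the 10 genes and 61.2 kb over the lists.

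The median distance from the nearest peak midpoint to a gene end was 6.29 kb for the 10 genes and between 192 and 518 kb in the 6 lists, beside 361 kb for all protein-coding genes (quartiles 127 and 813 kb). Within the 10 genes the distances fell on either side of a wide gap, 6 at 11.4 kb or less and 4 at 152 kb or more. Among the 6799 protein-coding genes as long as the 10 (2882 to 15101 bp), 18.1% had a peak within 100 kb, below the 21.8% of all protein-coding genes. A peak within 1 kb of an end was found for 1.24% of them, close to the 1.21% over all.

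**Figure D4:**
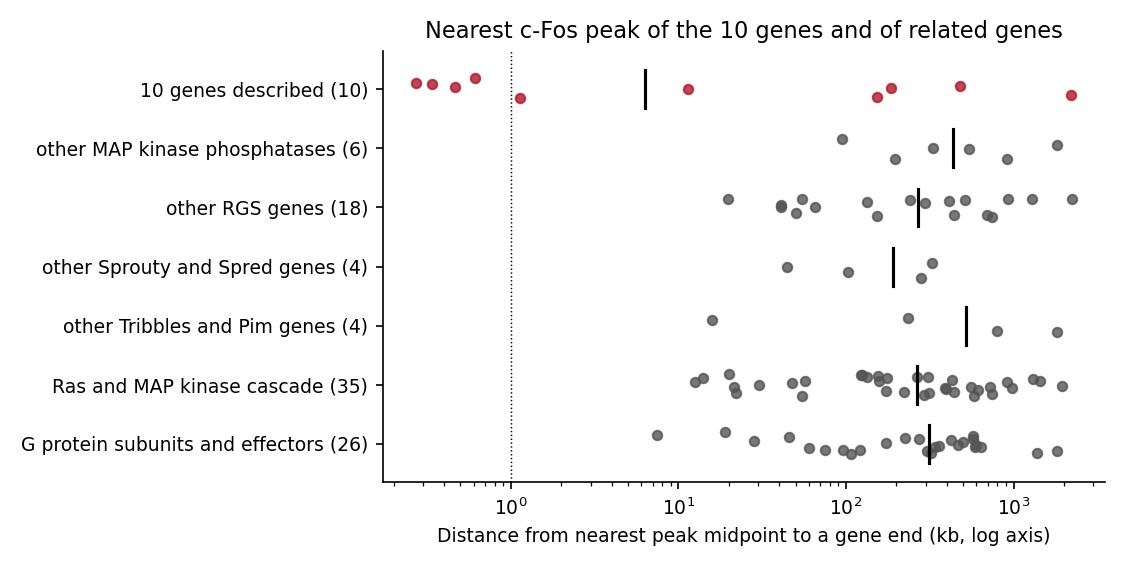
Distance in kb (log axis) from the nearest peak midpoint to a gene end, one point per gene, for the 10 genes (red) and the 6 lists of related genes (grey, number of genes in brackets), with medians as black lines. The dotted line is at 1 kb. Only Trib1, Dusp1, Pim1 and Rgs2 lie to its left.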

How the data were processed

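c-Fos and IgG CUT&RUN came from 12 samples of sorted CA1 nuclei in 4 groups, assigned from the sample titles. The submitters' processing notes name the builds mm10 and sacCer3 and the tools SEACR 1.1, bedtools 2.27.1, Bowtie2 2.2.9 and Trimmomatic 0.36. What each tool did, the peak threshold and how the authors combined replicates are not stated there. The deposited file gives peak positions in bases. It is attached to the first c-Fos replicate after kainic acid, but its name gives replicated peaks and no replicate number. It was therefore taken, as an assumption, to describe c-Fos after kainic acid as a group. Positions were made 1-based. Genes came from RefSeq (GRCm38.p6). Genes on assembled chromosomes that start below 3000000 (340, of which 108 protein-coding, Spry3 among them) were dropped, because these positions looked like those of unplaced scaffolds. Promoter windows gave the strand. The 10 genes and the related lists were chosen with earlier results of these data known. The TGACG core, the promoter overlap and the comparison of gene ends were added after the positions had been seen. So was the description of the grouped peaks downstream of Spry2, with its limit of 5 other peaks. From each list, up to 4 genes with the nearest peaks were named. Counting was tested on simulated peaks. Python 3.11.15, pandas 2.3.3, NumPy 2.4.6 and SciPy 1.17.1 were used.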

Additional observations from a re-analysis of the deposited data

How the results depend on the processing

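No paired analysis was possible because positions were deposited without any value for single replicates, and no replicate could be left out. Between 4 (among the wider peaks) and 8 (within 250 kb) of the 10 genes had a peak over the 7 alternatives, beside the 6 reported. For peaks at a gene end, the distances of 10, 50 and 250 kb do not apply. There the count was 3 within 500 bp or among the wider peaks and 5 within 2 kb, beside the 4 reported within 1 kb. No share over all protein-coding genes was computed for the 500 bp limit or for ends among the wider peaks. The 12 peaks became 5 within 10 kb, 7 within 50 kb, 25 within 250 kb and 6 among the wider peaks (1647). The highest count for 1 gene was 5, at Rgs4. Rgs4 had 0 within 10 kb, 2 within 50 kb, 5 within 250 kb, 3 among the wider peaks and 3 with only the nearest gene counted. Within 10 kb no gene of the 10 had more than 1, and within 250 kb the highest count was 8, at Spry2. The share of protein-coding genes with a peak, 21.8%, became 7.56% within 10 kb, 14.0% within 50 kb, 39.6% within 250 kb, 12.6% among the wider peaks and 8.52% with the nearest gene. These changes follow from fewer peaks, another distance or, with the nearest gene, from giving each peak to 1 gene only. Among single genes, 53 of 70 peak counts stayed within 1.5 times. Many of these were counts of 0 at Dusp4, Dusp5, Dusp6 and Spry4. A shorter distance, fewer peaks or merged peaks could not raise such a count, so 53 of 70 overstates how stable the counts were. Depth is unknown, so peaks under the threshold of the list are missing from every count.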
